A study of Mus musculus with 4 samples.

Results

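The cells described here are the neutrophils of dissociated mouse liver tumours profiled by droplet single-cell RNA sequencing. A cell was taken as a neutrophil where it had at least 300 detected genes, at most 25% mitochondrial UMIs (unique molecular identifiers, each a counted transcript molecule) and at least 20 UMIs of S100a8 and S100a9 together per 10000. It also needed at least 1 UMI of Csf3r, Cxcr2, Retnlg, Mmp9 or G0s2, and 0 UMIs of Cd3e, Cd79a and C1qa, which mark T cells, B cells and macrophages. The rule found 182 neutrophils among the 25715 cells kept by the gene and mitochondrial filters, from 30374 barcodes. The cells were thus selected on measured levels of these genes, and those levels in the chosen cells are a description and not a finding.

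Tumours were made in male C57BL/6 mice by delivering transposon plasmids to the liver through a hydrodynamic tail vein injection, and all mice of both groups received c-MYC, AKT and the SB100X transposase. Control mice also received the empty pT3 vector, and KLF2 mice received pT3-EF1α-KLF2, which encodes the Krüppel-like transcription factor KLF2. The EF1α promoter that drives the inserted genes is not restricted to a cell type, and hydrodynamic injection mainly reaches hepatocytes; neutrophils are blood cells of the host. Tumours were taken 10 weeks after injection, at 18 weeks of age, from 2 mice per group, and each library holds the tumour cells of 1 mouse. A matrix was analysed for 3 libraries: vector replicate 2 and KLF2 replicates 1 and 2, so each comparison sets 1 control mouse against 2 KLF2 mice. Vector replicate 1 was not analysed here.

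Neutrophils are short-lived granulocytes made in the bone marrow under G-CSF, which acts through its receptor Csf3r. Ligands of the chemokine receptor Cxcr2, among them Cxcl1, Cxcl2 and Cxcl3, draw them from blood into tissue, and Cxcr4 holds them in the marrow and returns aged cells there. Granule proteins are made in order during maturation, first primary (Mpo, Elane, Prtn3), then secondary (Camp, Ngp, Ltf) and last tertiary (Mmp9), so that mature cells carry little messenger RNA of the early ones. In tumours neutrophils can release chemokines, interleukin 1 and prostaglandins, and they are known there for both tumour-promoting and tumour-restraining activity.

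The upstream sequences of 4 genes described below are shown. Of these, 3 encode neighbouring Cxcr2 ligands on chromosome 5, and G0s2 is a gene of the rule. Each is the 250 bases before the transcription start in RefSeq (GRCm38.p6), read 5′ to 3′ on the gene's strand. Capitals mark matches to the NF-kB consensus on either strand. The windows are chr5:90903649-90903898 (plus strand) for Cxcl2, chr5:90890995-90891244 (plus) for Cxcl1, chr5:90785851-90786100 (plus) for Cxcl3 and chr1:193273189-193273438 (minus) for G0s2.
Cxcl2: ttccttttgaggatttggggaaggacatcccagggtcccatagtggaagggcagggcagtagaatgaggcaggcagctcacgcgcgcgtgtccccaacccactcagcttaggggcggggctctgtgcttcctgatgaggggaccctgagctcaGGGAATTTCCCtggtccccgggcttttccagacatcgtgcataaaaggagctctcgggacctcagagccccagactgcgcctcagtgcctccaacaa
Cxcl1: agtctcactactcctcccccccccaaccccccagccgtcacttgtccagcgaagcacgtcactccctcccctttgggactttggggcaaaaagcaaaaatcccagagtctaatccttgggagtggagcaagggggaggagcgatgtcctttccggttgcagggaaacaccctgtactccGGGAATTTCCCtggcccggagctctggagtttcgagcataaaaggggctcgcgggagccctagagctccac
Cxcl3: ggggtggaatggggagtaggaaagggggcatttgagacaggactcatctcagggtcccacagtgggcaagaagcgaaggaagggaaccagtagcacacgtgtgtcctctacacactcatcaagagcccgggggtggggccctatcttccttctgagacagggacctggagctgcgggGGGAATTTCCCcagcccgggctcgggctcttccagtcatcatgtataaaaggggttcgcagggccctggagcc
G0s2: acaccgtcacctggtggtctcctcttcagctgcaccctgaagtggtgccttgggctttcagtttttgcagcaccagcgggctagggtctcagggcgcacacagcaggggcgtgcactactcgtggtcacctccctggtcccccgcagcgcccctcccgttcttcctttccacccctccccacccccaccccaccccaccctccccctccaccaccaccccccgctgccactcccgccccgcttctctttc
The 3 chemokine windows hold the same 11 bases, GGGAATTTCCC, which contain the NF-kB consensus in 2 overlapping registers; the run begins 97, 71 and 73 bases before the start of Cxcl2, Cxcl1 and Cxcl3. The G0s2 window holds none and has 7 overlapping or separate copies of CACCC, the core of the element that Krüppel-like factors bind. Of 32851 RefSeq windows of the same length, 7.25% hold the NF-kB consensus and 52.0% hold CACCC on either strand. Of the 5 ligands called higher that have a window, these 3 hold the NF-kB consensus, and Ccl3 and Il1a hold none. The window of the rule gene Csf3r holds 1 match and 4 copies of CACCC. A match describes the letters of the window and does not show that a factor binds there.

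The neutrophils numbered 51 in vector replicate 2, 44 in KLF2 replicate 1 and 87 in KLF2 replicate 2. As a share of kept cells they were 0.607% (Wilson 95% interval 0.462% to 0.797%), 0.709% (0.528% to 0.950%) and 0.784% (0.636% to 0.965%), and the 3 intervals overlap. With 1 vector library the shares were not tested between groups, and the intervals cover counting error only. Over gated leukocytes (neutrophils, T cells, B cells, macrophages and monocytes) the shares were 1.36% of 3763 cells, 2.91% of 1510 and 2.49% of 3494. T cells numbered 2412 in the vector library and 68 and 226 in the KLF2 libraries, so the leukocyte denominator itself differs.

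The libraries differed in RNA quality and depth before any comparison. Neutrophils of the vector library had a median of 1385 UMIs, 479 genes and 14.1% mitochondrial UMIs. Those of the KLF2 libraries had medians of 2928.5 and 1935 UMIs, 987.5 and 781 genes, and 0.131% and 0.310% mitochondrial UMIs. Cells above 3 times their library's median UMIs numbered 4, 3 and 10 and held 29.9%, 37.2% and 52.6% of all neutrophil UMIs, so that few cells weigh heavily in a sum. The smallest barcode held 522 UMIs in the vector library and 1000 in each KLF2 library. In the vector library 77 further barcodes met the neutrophil gate and were removed by the filters, 67 with over 25% mitochondrial UMIs and 38 with under 300 genes, against 0 in either KLF2 library. Without those filters the shares were 0.996%, 0.700% and 0.774%, so their order follows the filter. The part of these differences in the results below was not tested.

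At the edge of the S100 threshold, the lowest neutrophil held 20.8, 28.4 and 21.2 UMIs per 10000 in vector replicate 2 and KLF2 replicates 1 and 2, and the highest cell just outside held 19.2, 17.5 and 18.0. Between 20 and 50 per 10000 there were 6, 7 and 14 neutrophils. G0s2 was the only second gene in 0, 4 and 14 neutrophils, and 1, 6 and 32 had no UMI of either receptor, Csf3r or Cxcr2. Barcode names shared between pairs of libraries numbered 550 to 1146, and 0 of them were neutrophils in both.

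**Figure D1:**
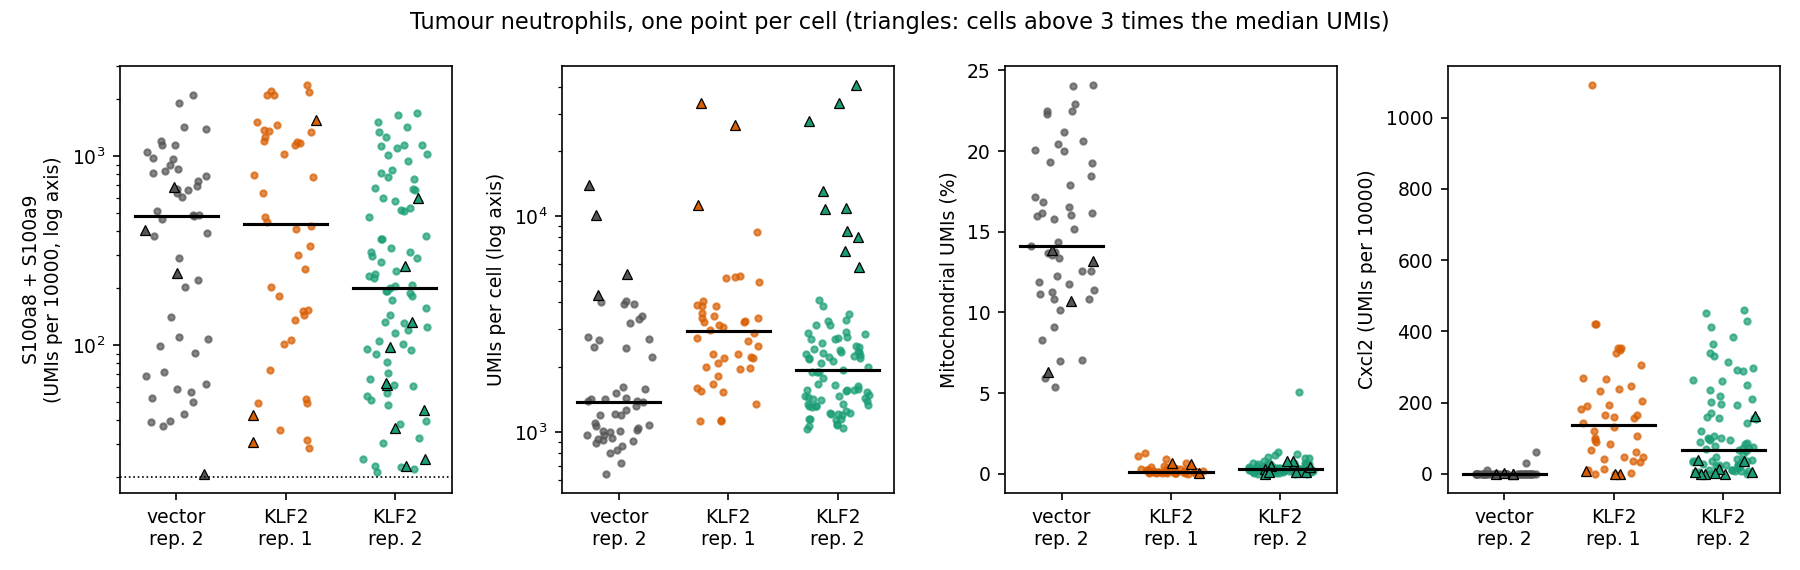
Each point is 1 neutrophil, in columns by library: S100a8 + S100a9 UMIs per 10000 (log axis, dotted line at the threshold of 20), UMIs per cell (log axis), percent mitochondrial UMIs and Cxcl2 UMIs per 10000; bars are medians and triangles are cells above 3 times their library's median UMIs. The vector cells are shallower (median 1385 UMIs) and richer in mitochondrial UMIs (14.1%), and most of them lie at 0 for Cxcl2.

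The gated cells carried the neutrophil markers in all 3 libraries. S100a8, a subunit of the calcium-binding alarmin calprotectin, stood at 22999 CPM (UMIs per 1000000 UMIs summed) over the vector neutrophils and at 23876 and 10859 CPM over those of KLF2 replicates 1 and 2. Its partner S100a9 stood at 27132, 35516 and 15553 CPM. Retnlg, a resistin-like protein of mature neutrophils, stood at 2376, 4393 and 1608 CPM, against 3.04, 2.76 and 1.71 CPM over all other cells of the same libraries. Mmp9, the gelatinase of tertiary granules, stood at 168, 386 and 273 CPM. After each cell was thinned at random to 1000 UMIs, Retnlg was seen in 43.6%, 43.2% and 39.1% of neutrophils (49.0%, 56.8% and 50.6% before thinning) and in 0.04%, 0.00% and 0.00% of T cells. For this 39, 44 and 87 neutrophils and 2394, 68 and 226 T cells were deep enough. These 4 genes belong to the rule, so no test is given for them.

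RNA of other cell types was also present. Summed over 11 detected T and NK cell markers, the neutrophils held 1228, 41.7 and 108 CPM, and all other cells of those libraries 3255, 106 and 209 CPM. Hepatocyte markers summed to 1184, 57.4 and 85.6 CPM in neutrophils and endothelial markers to 1448, 36.5 and 57.1 CPM. Epithelial tumour markers ran the other way, at 141, 997 and 2058 CPM in neutrophils and 206, 1817 and 2820 CPM in other cells. For these 4 lists the order of the libraries was the same in neutrophils and in the rest of the library, apart from the 2 KLF2 libraries for hepatocyte markers. Monocyte markers did not follow the rest: they summed to 221, 313 and 847 CPM in neutrophils and to 496, 372 and 277 CPM in other cells. Macrophage markers summed to 459, 303 and 488 CPM in neutrophils and to 1227, 1867 and 2203 CPM in other cells. Without the neutrophils that held a UMI of 5 monocyte genes, 46, 37 and 80 cells remained. The genes called in the comparison of groups then went from 184 higher to 29 and from 118 lower to 43. Cd14, Ccrl2, Hcar2, Nfkbiz, Atf3, Arhgap45 and Lilrb4a, described below, still passed there. Klf4, Ptgs2, Ier3, Hk2, Bnip3, Egln3, Pirb, Cxcr4, Tgfb1, Txnip, Grk2, Lsp1, Samsn1, Plaur and Cd53 did not (adjusted p 0.0558 to 0.146). The part of RNA from other cells in the results was not tested.

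The question of the comparison was how neutrophils of tumours with added KLF2 differed from those of control tumours. UMIs were summed over the neutrophils of each library (113223, 191660 and 315302 UMIs) and compared with edgeR's quasi-likelihood test. The spread between samples could be estimated from the 2 KLF2 libraries alone (1 residual degree of freedom, shrunk towards the trend over genes), on the assumption that the lone vector library varies as they do. Of 3494 genes tested, 184 (5.27%) were higher and 118 (3.38%) lower in KLF2 neutrophils at an adjusted p under 0.05, and the median log2 fold change was 0.33. With DESeq2 the counts were 22 higher and 26 lower. The edgeR shares of 5.27% and 3.38% are the background for the counts called in each gene list below. An unadjusted edgeR p under 0.05 was reached by 748 of the 3494 genes, which is the background for such counts below.

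Most calls had a counterpart in the other cells. Of the 184 higher genes, 165 were also at least 2-fold higher in all other cells of both KLF2 libraries, against 27.3% of all genes tested, and 108 had 0 UMIs in the vector neutrophils. Of the 118 lower genes, 91 were also at least 2-fold lower in the other cells, against 11.8% of all tested. Genes of the neutrophil itself were fewer. Among the higher genes 40 stood at least 2-fold above the other cells in both KLF2 libraries (17.8% of all tested did), and among the lower genes 47 did so in the vector library (20.1% of all tested did).

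**Figure D2:**
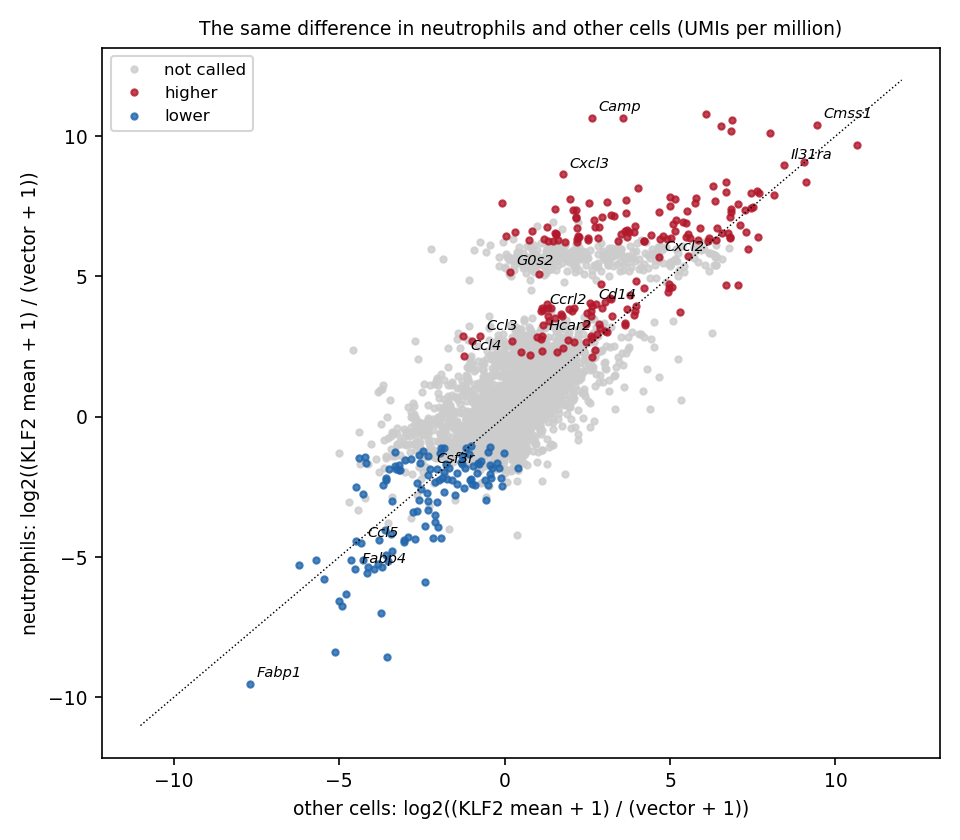
Each point is 1 of the 3494 genes tested: the log2 ratio of the mean of both KLF2 libraries to the vector library in all other cells (x axis) and in neutrophils (y axis), from CPM + 1; the dotted line marks equal ratios, and colours mark genes called higher or lower in neutrophils. Il31ra, Cmss1, Fabp1 and Fabp4 lie near the line, while G0s2, Ccl3, Ccl4, Ccrl2 and Cxcl3 lie above it.

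Cxcl2 was higher in the neutrophils of both KLF2 libraries. It encodes a Cxcr2 ligand that recruits further neutrophils (GRCm38 chr5:90903871-90905938, plus strand). It stood at 177 CPM in the vector neutrophils and at 11917 and 6480 CPM in those of KLF2 replicates 1 and 2. The KLF2 libraries lay far above the vector library and apart from each other by less than that gap. The log2 fold change was 5.24 (SE 0.74, adjusted p = 2.90e-06), and the mean was 52.1 times the vector level. Cxcl2 passed in 13 of 13 alternatives tried, DESeq2 included. It was seen in 4 of 51 vector neutrophils, 41 of 44 and 79 of 87, and after thinning to 1000 UMIs in 5.13%, 88.6% and 85.1%. T cells thinned alike showed it in 0.13%, 1.47% and 4.87%. All other cells stood at 6.74, 182 and 206 CPM, so the level outside neutrophils was also higher in both KLF2 libraries.

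Among KLF2 neutrophils the Cxcl2 level varied widely, with a median of 137 and a highest of 1090 UMIs per 10000 in replicate 1, and 66.1 and 459 in replicate 2. The vector median was 0.00 and the highest cell held 61.8. G0s2, an inhibitor of the triglyceride lipase ATGL, was among the rule's second genes, so its level is a description: 79.5 CPM in the vector neutrophils against 3068 and 2731 CPM. Of the vector neutrophils 44 of 51 had neither gene and 2 had both. In KLF2 replicate 1, 0 had neither and 31 of 44 had both, and in replicate 2, 3 had neither and 67 of 87 had both. These counts of both and neither are set in part by the gate, through G0s2, and were taken without thinning. Cells with Cxcl2 alone considered were common in both KLF2 libraries (41 of 44 and 79 of 87) and rare in the vector library (4 of 51). With G0s2 dropped from the gate, the KLF2 libraries kept 40 and 73 neutrophils and Cxcl2 still passed.

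The list of 20 neutrophil cytokines and chemokines had 17 members tested, of which 7 were higher and 1 lower. Over all genes tested 5.27% were higher and 3.38% lower. The list's median log2 fold change was 1.07, against 0.33 for all genes tested. With DESeq2, Cxcl2 was the 1 member called. Without the neutrophils that held monocyte UMIs, Cxcl2 and Ccl3 still passed (adjusted p 0.00706 and 0.0420), and the other 5 did not (0.0658 to 0.185). Summed over the list, the neutrophils held 4398, 24293 and 14624 CPM, and all other cells 916, 778 and 1347 CPM. Ccl3, a ligand of Ccr1, stood at 124, 1049 and 783 CPM (log2 fold change 2.44, SE 0.60, adjusted p = 0.00656; 0.0578 with DESeq2). Its neighbour on chromosome 11, Ccl4, stood at 203, 871 and 939 CPM (1.73, SE 0.57, adjusted p = 0.0490) and passed in 3 of 13 alternatives. Summed over all other cells, neither gene was higher in a KLF2 library. Those cells held 96.3, 28.3 and 85.6 CPM of Ccl3 and 384, 62.1 and 264 CPM of Ccl4. These sums mix cell types, and the vector library held many more T cells. Within T cells, Ccl3 stood at 166, 67.3 and 220 CPM and Ccl4 at 574, 186 and 620 CPM. Macrophages and monocytes also had KLF2 replicate 1 below the vector library and replicate 2 above it, while B cells did not. Ccl4 was seen in 12 of 51, 11 of 44 and 35 of 87 neutrophils, and 1 cell held 103 of its 167 UMIs in KLF2 replicate 1.

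Oncostatin M (Osm), an interleukin 6 family cytokine, stood at 61.8, 626 and 270 CPM, with KLF2 replicate 1 well above replicate 2 (2.37, SE 0.64, adjusted p = 0.0132). Summed over all other cells, Osm reached at most 9.12 CPM. Monocytes held 8.80, 11.5 and 45.0 CPM of it and macrophages 3.04, 16.3 and 16.4 CPM. Cxcl3, Il1a and Cxcl1 had 0 UMIs in the vector neutrophils, so their differences are bounds of the KLF2 mean against 3 UMIs. Cxcl3 stood at 725 and 76.1 CPM in KLF2 replicates 1 and 2, with other cells at 0.31, 2.54 and 4.39 CPM. Its mean was at least 15.1-fold higher, a bound that rests mainly on replicate 1 and does not hold for replicate 2 alone. Il1a, the alarmin form of interleukin 1, stood at 177 and 76.1 CPM, at least 4.78-fold higher. Cxcl1 stood at 57.4 and 184 CPM, at least 4.55-fold higher, but the other cells held 1.73, 79.3 and 147 CPM, and its adjusted p was 0.0604 without the cells above 3 times the median UMIs. In KLF2 replicate 2, 33 of its 58 UMIs lay in 1 cell.

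Il1b, which encodes the secreted interleukin 1 beta, stood at 2323, 6021 and 3926 CPM, and both KLF2 libraries lay above the vector library. The difference did not pass (log2 fold change 0.65, SE 0.54, adjusted p = 0.499). Thinned to 1000 UMIs, 64.1%, 81.8% and 79.3% of neutrophils held a UMI of Il1b, with overlapping intervals, against 80.4%, 88.6% and 85.1% before thinning. Tnf stood at 124, 130 and 409 CPM and Ccl6 at 548, 1784 and 974 CPM, and neither passed (adjusted p 0.491 and 0.358). Tgfb1 was the member that fell, from 141 to 20.9 and 25.4 CPM (log2 fold change -2.97, SE 0.68, adjusted p = 0.00348). All other cells also held less Tgfb1, at 95.8, 18.3 and 13.5 CPM.

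**Figure D3:**
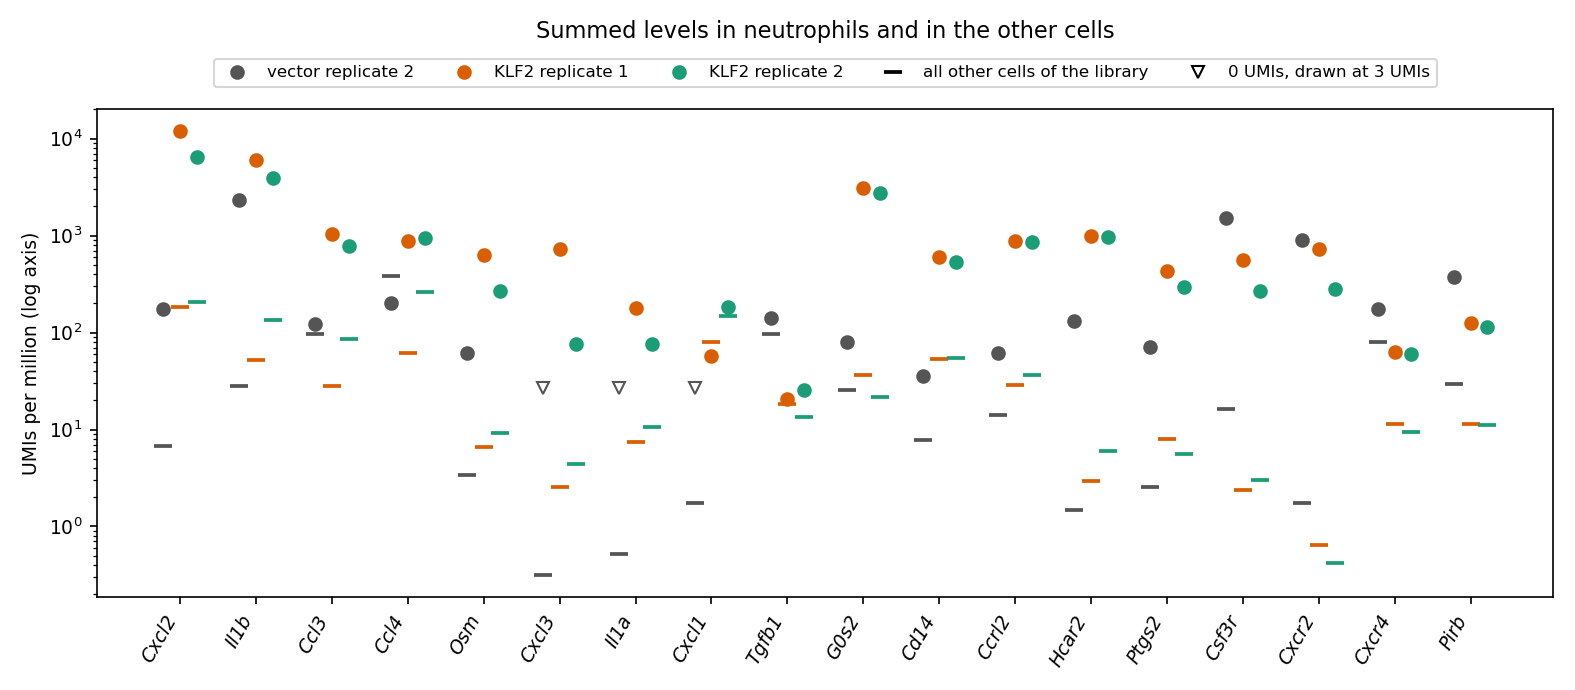
Summed level of 18 genes in the neutrophils (circles) and in all other cells (dashes) of each library, in CPM on a log axis; triangles stand for 0 UMIs, drawn at the level of 3 UMIs. Cxcl2 lies at 177 CPM in the vector library and at 11917 and 6480 CPM in the KLF2 libraries, Il1b differs less, and Csf3r lies lower in both KLF2 libraries.

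Csf3r, a rule gene given as description, stood at 1528 CPM in the vector neutrophils and at 563 and 270 CPM in KLF2 replicates 1 and 2. Both KLF2 libraries lay below the single vector library, and all other cells held 16.4, 2.37 and 3 CPM. Thinned to 1000 UMIs, Csf3r was seen in 71.8%, 56.8% and 26.4% of neutrophils. Cxcr2, the receptor of the CXC ligands above and also a rule gene, stood at 910, 720 and 279 CPM, so that KLF2 replicate 1 lay near the vector library. Since a KLF2 neutrophil could enter the gate through G0s2 alone, the gate was repeated with at least 1 UMI of either receptor, which left 50, 38 and 55 neutrophils.

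Of the chemoattractant receptors other than the rule gene Cxcr2, 7 were tested, 0 were higher and 1 was lower, where 3.38% of all genes tested were lower. That gene was Cxcr4, at 177, 62.6 and 60.3 CPM (log2 fold change -1.94, SE 0.61, adjusted p = 0.0401), and its adjusted p was 0.249 without the cells above 3 times the median UMIs. Thinned to 1000 UMIs, it was seen in 7.69%, 6.82% and 10.3% of neutrophils, with overlapping intervals (19.6%, 20.5% and 17.2% before thinning). Ccr1, a receptor of Ccl3, stood at 79.5, 397 and 162 CPM and did not pass (adjusted p = 0.217).

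Of 17 innate sensing receptors 14 were tested and 1 was higher, where 5.27% of all genes tested were higher. That gene was Cd14, the co-receptor that hands lipopolysaccharide to TLR4. Cd14 stood at 35.3 CPM in the vector neutrophils and at 595 and 533 CPM in the KLF2 neutrophils (3.55, SE 0.68, adjusted p = 0.000472), and it passed in 13 of 13 alternatives. Thinned to 1000 UMIs, it was seen in 7.69%, 47.7% and 35.6% of neutrophils (7.84%, 61.4% and 52.9% before thinning). T cells thinned alike showed it in 0.17%, 1.47% and 1.33%. All other cells held 7.87, 53.6 and 54.6 CPM of Cd14, so it was higher there too in both KLF2 libraries. Macrophages and monocytes also held more of it in both KLF2 libraries than in the vector library. The C-type lectins Clec4d and Clec4e, which sense microbial glycolipids, stood at 371, 1325 and 577 CPM and at 141, 621 and 425 CPM. Neither passed (adjusted p 0.363 and 0.110), although Clec4e had an adjusted p of 0.0326 without the cells above 3 times the median UMIs. Trem1, an amplifier of neutrophil activation, stood at 88.3, 423 and 206 CPM (adjusted p = 0.172).

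Of the cytokine and growth factor receptors other than the rule gene Csf3r, 12 were tested and 0 were called with edgeR or DESeq2, with 6 at an unadjusted edgeR p under 0.05. Il1r2, the decoy receptor of interleukin 1, stood at 230, 814 and 444 CPM (adjusted p = 0.296). Among the Fc and complement receptors, 6 were tested and Pirb, an inhibitory immunoglobulin-like receptor, was the 1 called, at 371, 125 and 114 CPM (-2.06, SE 0.50, adjusted p = 0.00597). The related inhibitory receptor Lilrb4a fell from 397 to 110 and 57.1 CPM (-2.72, SE 0.52, adjusted p = 0.000472). Other cells held 29.8, 11.4 and 11.2 CPM of Pirb and 50, 2.12 and 4.33 CPM of Lilrb4a, so both were lower there as well. Neither passed with DESeq2 (adjusted p 0.278 and 0.103). Of 14 tested adhesion and migration genes 0 were called with edgeR or DESeq2, and 6 had an unadjusted edgeR p under 0.05.

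A list of genes reported for suppressive tumour neutrophils had 17 members tested, 2 higher and 0 lower, where 5.27% of all genes tested were higher. Its median log2 fold change was 0.53, against 0.33 for all genes tested. Ccrl2, an atypical receptor that binds chemerin, stood at 61.8, 887 and 869 CPM (3.39, SE 0.66, adjusted p = 0.000489). Ptgs2, the prostaglandin synthase also called COX-2, stood at 70.7, 433 and 295 CPM (1.91, SE 0.60, adjusted p = 0.0381) and missed the threshold with DESeq2 (0.547). Summed over all other cells, Ccrl2 reached at most 36.6 CPM and Ptgs2 at most 8.01 CPM. Monocytes held 28.9, 29.5 and 134 CPM of Ccrl2 and 2.51, 12.8 and 27.2 CPM of Ptgs2. Macrophages held 31.5, 74.8 and 64.8 CPM of Ccrl2 and 9.39, 18.2 and 8.15 CPM of Ptgs2. Hcar2, the receptor of niacin and beta-hydroxybutyrate, belongs to no list and was named after its values were seen. It stood at 132, 991 and 970 CPM in neutrophils and at 1.49, 2.98 and 5.95 CPM in other cells (2.46, SE 0.60, adjusted p = 0.00605).

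**Figure D4:**
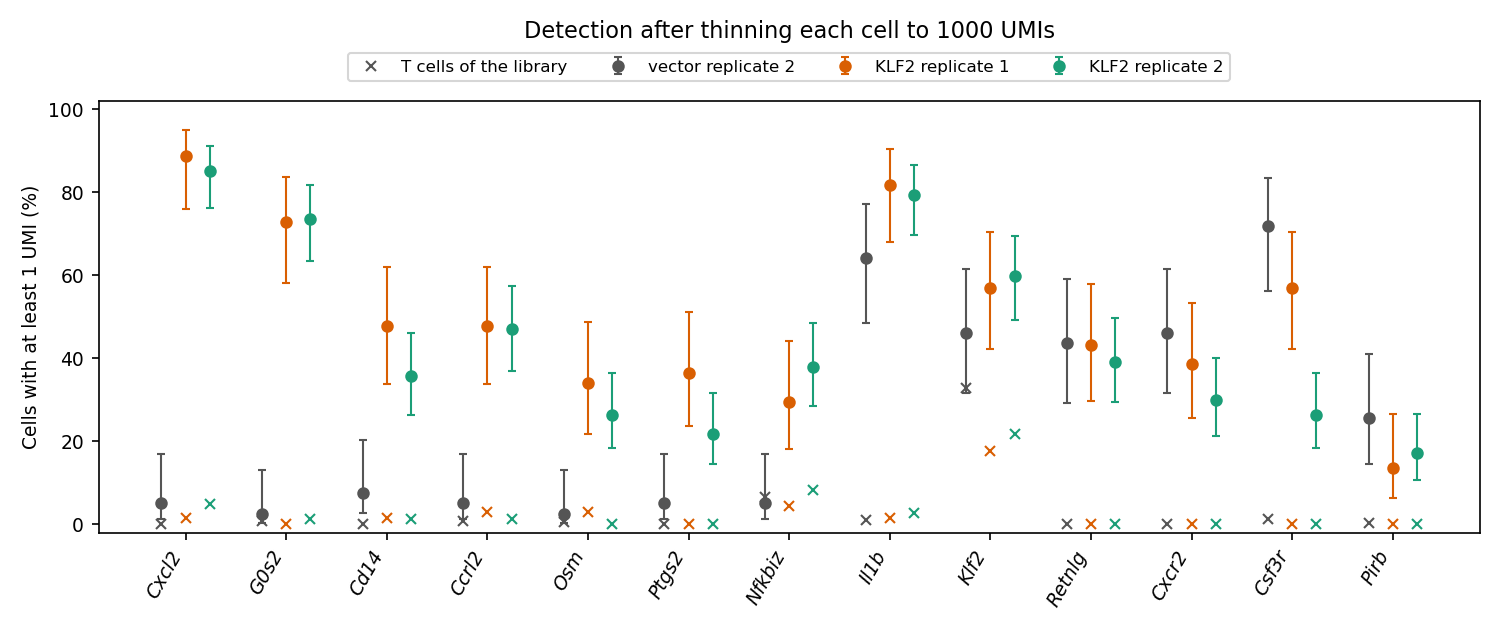
Percent of neutrophils with at least 1 UMI after thinning to 1000 UMIs (circles, Wilson 95% intervals, 39, 44 and 87 cells) and the same in T cells (crosses) for 13 genes. For Cxcl2, G0s2, Cd14, Ccrl2, Osm and Nfkbiz the vector interval lies below those of both KLF2 libraries, while those of Il1b, Klf2 and Retnlg overlap. The intervals cover counting error over cells and not the spread between mice. G0s2, Retnlg, Cxcr2 and Csf3r are rule genes, given as description.

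Response genes were called 1 or 2 at a time. In the NF-kB list, 14 were tested, 2 were higher and 0 lower, where 5.27% of all genes tested were higher. With DESeq2 0 were called, and 3 had an unadjusted edgeR p under 0.05. Nfkbiz, a nuclear cofactor of NF-kB, stood at 61.8, 433 and 374 CPM (2.26, SE 0.60, adjusted p = 0.0124), with other cells at 50.3, 42.1 and 75.1 CPM. Ier3, an early response gene, stood at 283, 1357 and 1151 CPM (1.71, SE 0.56, adjusted p = 0.0490), and its adjusted p was 0.0591 without the cells above 3 times the median UMIs. All other cells held 29.2, 173 and 198 CPM of Ier3, so it was higher there too in both KLF2 libraries. Nfkbia, which encodes the inhibitor of NF-kB, stood at 715, 2546 and 2835 CPM and did not pass (adjusted p = 0.0942). Of 19 immediate early and stress genes, 1 was higher: the stress factor Atf3, at 44.2, 1038 and 802 CPM (3.93, SE 0.69, adjusted p = 0.000135). Atf3 was higher in the other cells too, at 59.9, 583 and 1096 CPM.

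Of 15 tested interferon-stimulated genes, 0 were higher and 1 was lower, against 5.27% higher and 3.38% lower of all genes tested. The list's median log2 fold change was -0.92, against 0.33 for all genes tested. Without the cells above 3 times the median UMIs it was -0.24, against 0.18. Isg15, a ubiquitin-like protein induced by interferon, stood at 168, 517 and 454 CPM in neutrophils and did not pass (adjusted p = 0.234). All other cells held 211, 23.5 and 86.8 CPM of Isg15, so both KLF2 libraries lay above the vector library in neutrophils and below it elsewhere.

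The hypoxia and glycolysis list had 21 members tested, 4 higher and 0 lower, with a median of 1.28, where 5.27% of all genes tested were higher. With DESeq2 0 were called, and 10 had an unadjusted edgeR p under 0.05, against 748 of all 3494 genes tested. Ero1l, an oxidase of the endoplasmic reticulum, had 0 vector UMIs and stood at 146 and 184 CPM, at least 6.23-fold higher. Hexokinase 2 (Hk2) stood at 35.3, 224 and 308 CPM (2.49, SE 0.72, adjusted p = 0.0223). Bnip3, a mitochondrial death and mitophagy protein, rested on 1 vector UMI, with a pooled ratio of 27.9 (95% interval 4.92 to 1111), and the prolyl hydroxylase Egln3 also on 1, with a ratio of 16.3 (2.84 to 653). Hilpda, a lipid droplet protein that like G0s2 inhibits ATGL, lies outside the list. It had 0 vector UMIs and 198 and 197 CPM, at least 7.45-fold higher. Other cells held 11.9, 51.4 and 54.9 CPM of Ero1l, 27.7, 165 and 187 CPM of Hk2, 5.64, 210 and 232 CPM of Bnip3, and 7.97, 57.4 and 45.3 CPM of Hilpda, higher in both KLF2 libraries for each. Ldha and Pgk1 stood at 124, 417 and 546 CPM and at 53.0, 188 and 336 CPM and did not pass (adjusted p 0.0902 and 0.0786).

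Klf2 itself was not called in neutrophils. It stood at 636, 1477 and 970 CPM (log2 fold change 0.50, SE 0.52, adjusted p = 0.597) and was seen in 46.2%, 56.8% and 59.8% of neutrophils thinned to 1000 UMIs (62.7%, 79.5% and 73.6% before thinning). The UMIs do not separate the mouse's own Klf2 from the injected copy. All other cells held 388, 335 and 404 CPM. Of 19 tested transcription factors of the neutrophil lineage, the relative Klf4 was the 1 called, with 1 vector UMI and 198 and 469 CPM in the KLF2 libraries (pooled ratio 41.5, 95% interval 7.36 to 1649). It was seen in 1 of 51, 6 of 44 and 26 of 87 neutrophils, and 1 cell held 30 of its 38 UMIs in KLF2 replicate 1. Other cells held 118, 205 and 281 CPM of Klf4. Cdkn1a, the cell cycle inhibitor p21, belongs to no list and stood at 115, 1972 and 1976 CPM (3.67, SE 0.64, adjusted p = 0.000135), and other cells held 105, 849 and 900 CPM. A single cell held 194 of its 378 UMIs in KLF2 replicate 1 and 346 of 623 in replicate 2.

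**Figure D5:**
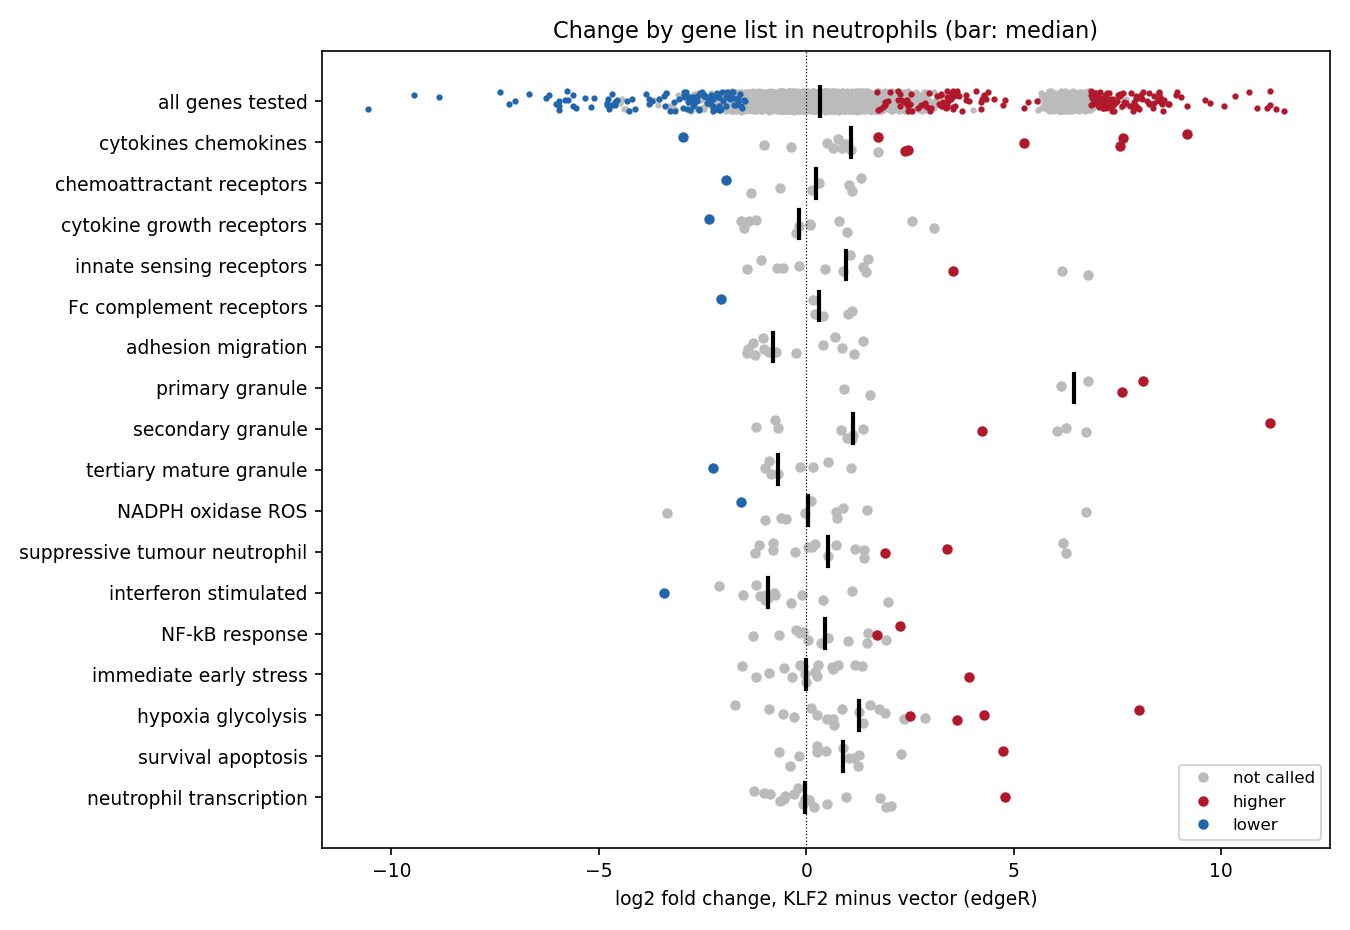
Log2 fold change (KLF2 minus vector, edgeR) of each tested gene by list; red and blue are genes called higher and lower at an adjusted p under 0.05, grey are not called and black bars are medians. The median of all 3494 genes is 0.33, that of the cytokines and chemokines 1.07 and that of the interferon-stimulated genes -0.92. The band of points beyond 5.5 includes genes with 0 vector UMIs, whose fitted values are not bounds. Rule genes are among the points and are given as description.

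In the primary granule list 2 of 6 tested were higher, against 5.27% of all genes tested: the proteases Elane and Prtn3. In the secondary list 2 of 13 were higher, Camp and Ngp. These calls came from single cells. Of the 972 UMIs of 7 early granule genes (Camp, Ngp, Ltf, Elane, Prtn3, Mpo and Fcnb) in KLF2 replicate 1, 94.3% lay in 1 cell, and of 56 in replicate 2, 82.1% lay in 1 cell. The vector neutrophils held 2. Cells with at least 10 such UMIs numbered 0, 2 and 1, so early granule RNA was confined to few of the 182 cells. Elane had all of its 75 UMIs in 1 cell of KLF2 replicate 1.

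The tertiary and mature list, without the rule genes, had 7 tested, 0 higher and 1 lower. Stfa2l1, a stefin protease inhibitor, stood at 424, 120 and 117 CPM (-2.25, SE 0.49, adjusted p = 0.00187). Its relative Cstdc4 stood at 503, 193 and 124 CPM (-2.12, SE 0.47, adjusted p = 0.00253), and reads of such near-identical copies may have been split between them. Without the cells above 3 times the median UMIs neither passed (adjusted p 0.278 and 0.211), and thinned to equal depth the log2 fold change of Cstdc4 was 0.094. Of 12 NADPH oxidase and redox genes, Txnip, an inhibitor of thioredoxin, was lower at 397, 230 and 140 CPM (-1.56, SE 0.48, adjusted p = 0.0332; 0.163 without the high-UMI cells). All 11 tested mitochondrially encoded genes fell, along with the mitochondrial shares above.

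Ranked by fold change under the rule for named genes, the 12 highest rises were led by genes of 1 cell or of the whole library. Prr9 had 1086 of its 1097 UMIs of KLF2 replicate 2 in 1 neutrophil, Defa21 955 of 970, Defa22 820 of 829, and in KLF2 replicate 1 Dapl1 had 612 of 615 and Camp 595 of 600. Defa21 and Defa22 are near-identical Paneth cell defensins. Gphn, Ptn, Cmss1, Il31ra, Krt7 and Wif1 were as high in other cells. Cmss1, for instance, stood at 8.83, 11792 and 14913 CPM in neutrophils and at 12.6, 8233 and 10789 CPM elsewhere, and Il31ra at 0.00, 412 and 580 CPM and at 0.37, 418 and 533 CPM. Cxcl3 was the member of these 12 whose neutrophil level stood far above the other cells and came from more than 1 cell.

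The 12 deepest falls included genes known from hepatocytes, endothelium and B cells. Fabp1, the liver fatty acid binding protein, stood at 724, 0.00 and 0.00 CPM in neutrophils and 516, 2.46 and 0.53 CPM in other cells. Fabp4, the form of capillary endothelium and fat, stood at 1254, 15.7 and 41.2 CPM and at 1430, 54.8 and 69.3 CPM elsewhere. Igkc, the kappa light chain, had 168 of its 178 vector UMIs in 1 cell. Apoc1, Sec14l2, Rnasek, Acaa1b, Cavin2, Tie1, Apoa2 and Adh1 held 14 to 62 UMIs each in the vector neutrophils and at most 5 in a KLF2 library. All 12 were also lower in the other cells of both KLF2 libraries. Their part in the scaling of the fit was not tested.

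Of the survival and apoptosis genes other than the rule gene G0s2, 12 were tested and 0 were called with edgeR or DESeq2, with 2 at an unadjusted edgeR p under 0.05. Of 8 proliferation genes 0 were called with edgeR or DESeq2, with 2 at an unadjusted edgeR p under 0.05. In the leukotriene and prostaglandin list Ptgs2 was the 1 called of 4 tested, and in the list on extracellular traps Elane the 1 of 6. Srgn, the proteoglycan that packs granule proteins, stood at 866, 4325 and 2569 CPM and did not pass (adjusted p = 0.0873).

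Other called genes stood at least 2-fold above the other cells of both KLF2 libraries, outside the lists. Samsn1, an adaptor protein of blood cells, stood at 44.2, 391 and 266 CPM in neutrophils and at 26.3, 10.2 and 10.9 CPM in other cells (2.44, SE 0.66, adjusted p = 0.0139). Plaur, the urokinase receptor, stood at 70.7, 454 and 254 CPM (1.86, SE 0.61, adjusted p = 0.0490), and the tetraspanin Cd53 at 44.2, 412 and 168 CPM (2.22, SE 0.70, adjusted p = 0.0404). In all 3 genes KLF2 replicate 1 lay highest, and the sum over all other cells held no more than 42.0 CPM of each. None of the 3 passed with DESeq2 (adjusted p 0.372, 0.596 and 0.550).

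Several blood cell genes also fell. Arhgap45, a GTPase activator of leukocytes, stood at 654, 130 and 98.3 CPM (-2.95, SE 0.48, adjusted p = 3.53e-05) and passed in 13 of 13 alternatives. Grk2, the kinase that desensitises chemokine receptors, stood at 327, 104 and 47.6 CPM (-2.58, SE 0.56, adjusted p = 0.00190), and the actin-binding protein Lsp1 at 486, 240 and 168 CPM (-1.70, SE 0.47, adjusted p = 0.0179). Neither of these 2 passed with DESeq2 (adjusted p 0.184 and 0.334). Other cells, which in the vector library include many more T cells, held 317, 11.5 and 15.1 CPM of Arhgap45, 122, 24 and 23.8 CPM of Grk2 and 227, 25.2 and 18.4 CPM of Lsp1. These genes were chosen after their values were seen.

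To ask where neutrophils differed from other cells of the same mice, the KLF2 difference in neutrophils was compared with that in T cells in a fit with library as a block. Of 7610 genes, 2 (0.0263%) had a more positive and 7 (0.0920%) a less positive difference in neutrophils. The more positive were Klf4, by 5.29 log2 units (SE 0.94, adjusted p = 0.0304), and the rule gene G0s2, by 6.2. T cells held 20.8, 13.9 and 7.23 CPM of G0s2. G0s2 was part of the neutrophil rule and not of the T cell rule, so its place here describes the chosen cells. For Cxcl2 the difference between the classes was 1.43 and did not pass (adjusted p = 0.773), with T cells at 1.59, 19.8 and 33.8 CPM.

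Against C1q-positive macrophages as the comparison class, 114 of 13799 genes (0.826%) had a more positive difference in neutrophils and 11 (0.0797%) a less positive one. Cxcl2 was among the former, by 1.88 log2 units (adjusted p = 0.0263), with macrophages at 22.9, 490 and 362 CPM. The others included Ccl3 by 3.13 (adjusted p = 0.000111), Ccl4 by 3.27, Ccrl2 by 3.13 (0.00102), Hcar2 by 3.06 (0.00196), Cd14 by 2.68 (0.0473) and Atf3 by 2.40 (0.0383). Isg15 was more positive by 4.44, although its own difference in neutrophils did not pass. These genes were picked after their values were seen. Klf4 (4.72, adjusted p = 0.000554) was called against both classes. Il1b and Osm were not called against either class (adjusted p against macrophages 1.00 for both). These values describe classes from the same 3 libraries, so the single vector mouse stands behind each of them.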

How the data were processed

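Per the labels' protocols, tumour cells were encapsulated with the DNBelab C Series kit. The authors deposited raw UMI counts per gene and barcode, written by PISA v1.0 per the file headers, with genome build GRCm38 per the submitters' processing notes. For the aligner, annotation and cell calling: not given in the sources used here. From these counts, cells were filtered and gated as stated in the report, and UMIs were summed per library. The gated cells, gene lists and alternatives were chosen with earlier results of these data known. No doublet caller was run. Instead, fits were repeated without neutrophils above 3 times their library's median UMIs.

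Sums were tested with edgeR 4.0.16 (filterByExpr, TMM scaling, quasi-likelihood test, Benjamini-Hochberg adjustment over all genes tested, threshold 0.05). DESeq2 1.42.0, RLE scaling, other filters and other gates were alternatives. The functions were tested on simulated data. CPM are UMIs per 1000000 summed neutrophil UMIs, without TMM. Neutrophils held 641 to 40466 UMIs each. For a gene with 0 vector UMIs, the mean CPM of the KLF2 libraries is given against 3 UMIs over the vector neutrophils (26.5 CPM). A gene with 1 to 3 is given as a pooled ratio with an exact 95% interval for counting error.

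Named genes were those past the threshold, at 30 CPM or more on average and 2-fold apart in each KLF2 library: the 12 highest and 12 lowest by fold change, without mitochondrial, ribosomal, Gm, Rik and rule genes, plus called and up to 4 most abundant members of each list. T cells held at least 2 UMIs of Cd3d, Cd3e and Cd3g, and macrophages at least 2 of C1qa, C1qb and C1qc, with S100a8 and S100a9 under 20 per 10000. Gene coordinates are from GENCODE M21. Some genes are not reported here.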

Additional observations from a re-analysis of the deposited data

Results flagged for a closer look

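For 9 genes the KLF2 difference in neutrophils differed from that in T cells of the same libraries by the test of the difference itself. G0s2 was more positive in neutrophils by 6.2 log2 units and Klf4 by 5.29. G0s2 is a gene of the neutrophil rule and not of the T cell rule, so its difference is set in part by the choice of cells and is no support. Klf4 stood at 8.83, 198 and 469 CPM in neutrophils and at 97.0, 41.6 and 145 CPM in T cells of vector replicate 2 and KLF2 replicates 1 and 2. Under the 4 alternatives to this comparison, the adjusted p of Klf4 ranged from 8.09e-05 to 0.00228. None of them left out the high-UMI cells or the neutrophils with monocyte UMIs. Klf4 was seen in 1 of 51 vector neutrophils, and a single cell held most of its UMIs in KLF2 replicate 1. Without the neutrophils with monocyte UMIs, its edgeR difference between groups in neutrophils did not pass (adjusted p = 0.0792).

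The other 7 were less positive in neutrophils, and 6 of them are genes of T and NK cells: Cd3g by -10.89 log2 units, Trbc1 by -10.63, Il2rb by -10.50, Ccl5 by -4.94, Trbc2 by -4.81 and AW112010 by -4.53. T cells were chosen on Cd3d, Cd3e and Cd3g and neutrophils on the absence of Cd3e, so the difference in Cd3g is likewise set in part by the choice of cells. Cd3g, Trbc1 and Il2rb had 0 UMIs in the KLF2 neutrophils, so their fitted values depend on the prior count. Ccl5 stood at 645, 10.4 and 44.4 CPM in neutrophils and at 3474, 5754 and 3947 CPM in T cells. Over all other cells it stood at 1685, 52.6 and 113 CPM, and T cells numbered 2412, 68 and 226. With macrophages as the comparison class these 6 had adjusted p-values of 0.959 to 1.00. The kappa light chain gene Igkc was less positive by -5.91, with 168 of its 178 vector UMIs in 1 neutrophil. The part of RNA from other cells in these differences was not tested.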

How the results depend on the processing

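No paired analysis was possible because the groups compared share only replicate number 2. The 184 higher and 118 lower genes became 62 and 47 with at least 50 S100 UMIs per 10000, 46 and 35 after thinning to 1000 UMIs, 106 and 78 without the high-UMI cells and 22 and 26 with DESeq2. With gates added after the data were seen, they became 29 and 43 without any UMI of 5 monocyte genes, and 86 higher with a receptor UMI. The genes differing from T cells rose from 9 to 125 against macrophages, 41 with RLE scaling, 38 without the count filter and 46 in cells of at least 1000 UMIs. The cause was not tested. The vector share moved from 0.607% to 0.369% with at least 500 genes and 0.214% with at most 10% mitochondrial UMIs, and that of KLF2 replicate 2 from 0.784% to 0.495% with a receptor UMI. The fit at 10% was not run, since 7 vector neutrophils remained. Retnlg, at -0.14, turned to 0.13 without the filter, 0.26 at 50 S100 UMIs, 0.59 thinned and 0.84 without the high-UMI cells, and Cstdc4, at -2.12, to 0.094 thinned. Without 1 KLF2 library in turn, Retnlg ranged from -0.89 to 0.31 and Tnf from -0.45 (without KLF2 replicate 2) to 1.34. Leaving out either KLF2 library leaves no residual degrees of freedom, so these are values with no test. Elane had 0 UMIs once KLF2 replicate 1 was left out and gave no value.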
